A study of Mus musculus with 12 samples.

Results

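The genes examined here encode the constitutive 26S proteasome of the mouse retina. They were chosen by symbol alone, as Psma1 to Psma7, Psmb1 to Psmb7, Psmc1 to Psmc6 and every numbered Psmd gene, which gave 34 of the 56748 genes in the table. By subcomplex these were 7 genes of the alpha ring, 7 of the beta ring, 9 of the 19S base, 8 of the 19S lid and 3 assembly chaperones of the base. RNA was sequenced in 12 libraries, with 3 replicates in each of 4 groups, from retinas of mice that were 2 weeks old. Control mice, called Het here, were RiboTag;Shp2fl/+;i75-Rod-Cre littermates, and knockout mice, called KO, were RiboTag;Shp2fl/fl;i75-Rod-Cre, so that both genotypes carried Cre and a floxed Shp2 allele and both were homozygous for RiboTag. Control libraries are titled wt although their genotype is listed as Shp2_Rodhet. Cre was expressed from a rod-specific promoter, which directs HA tagging of ribosomes and deletion of Shp2 (Ptpn11) to rods, so that control rods lose 1 Shp2 allele as well. Rod libraries hold mRNA pulled down on the tagged ribosomes (TRAP), and retina libraries hold RNA of the whole retina before the pull-down. The labels do not say which libraries came from which animals, so p-values measure the spread between these libraries, part of which may be technical.

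The proteasome degrades proteins that have been marked with ubiquitin chains. Its barrel-shaped core has outer rings of alpha subunits, which gate the entrance, and inner rings of beta subunits, which carry the peptidase sites, and a 19S cap on the barrel recognises, unfolds and feeds in the substrates. Rods build and renew large amounts of outer segment protein, and the ubiquitin-proteasome system is known there for clearing misfolded or surplus protein. The finished particle holds its subunits in fixed proportions, and NFE2L1, a transcription factor that is itself cleared by the proteasome, is known to raise their genes together.

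Deposited values are whole numbers, with totals of 16263948 to 16265259 in rod and 14525527 to 14527992 in retina libraries. For 6 of the 12 libraries the factor between reads and deposited values could be estimated, as 0.643 to 1.454, which corresponds to 9990000 to 25300000 reads. The 9 rod markers used (Gnat1 and others) summed to 1145764 to 1413492 in rod libraries against 337447 to 452088 in retina libraries. The 6 Müller cell markers summed to 1348 to 2695 in rods against 34717 to 52402 in retina, and the 13 protein-coding genes of the mitochondrial genome to 7349 to 13895 in rods against 769945 to 1391802 in retina. Markers of bipolar cells and cones were depleted less. The 6 bipolar markers summed to 7865 to 10629 in rods against 16444 to 18367 in retina. The 7 cone markers summed to 4476 to 7196 in rods against 13207 to 15627 in retina. The summed values of 4 lens crystallin genes (Cryaa, Cryba1, Crybb2 and Crygs) varied far more, from 4 to 11630 in rods and from 95 to 680794 in retina. In the order of replicates 1 to 3, used throughout, Ptpn11, the targeted gene, had deposited values of 2511, 2439 and 2431 (Het rods) and 1735, 2139 and 1971 (KO rods). The KO values were all below the Het values, but the log2 fold change of -0.23 ± 0.09 (standard error, n = 3 against 3) did not pass the test with an adjusted p = 0.0775 from limma. This value covers the whole gene, including exons outside the floxed part. The proteasome genes were well covered, with deposited values from 217 (Psmd10 in a KO rod library) to 4135 (Psmc6 in a Het rod library), and all 34 passed the filter on low values in every comparison.

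**Figure D1:**
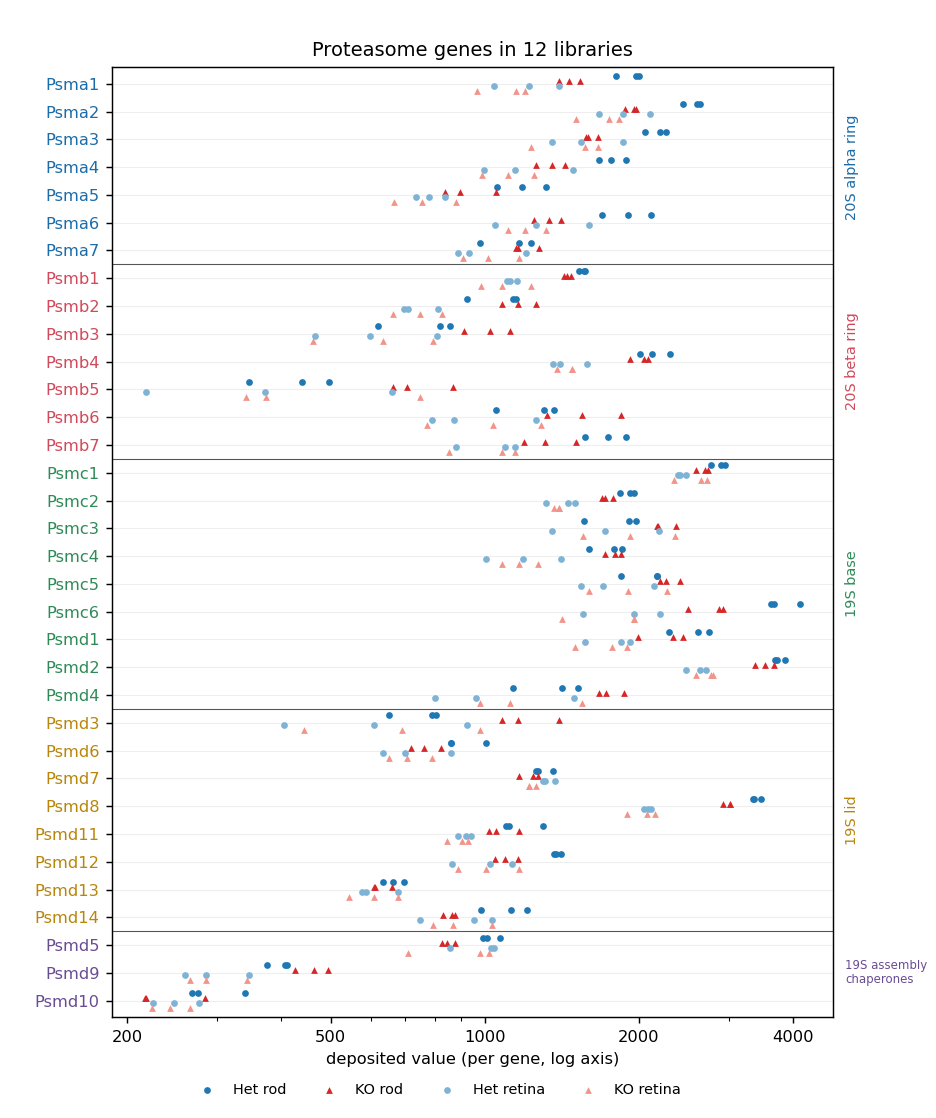
Deposited value of each of the 34 proteasome genes (rows, grouped by subcomplex, which colours the names) in each of 12 libraries (points, 3 per group, coloured by group), on a log axis. All values lie between 217 and 4135, and Psmc6 in Het rods is the highest.

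Levels were compared between genes only per kilobase of transcript, after scaling the libraries by the TMM method. In Het rods the alpha ring genes ranged from 823 ± 29.7 (Psma3, mean ± SD, n = 3) to 1973 ± 204 in scaled value per kilobase (Psma6). The beta ring genes ranged from 514 ± 97.1 (Psmb5, which carries the chymotrypsin-like site) to 1957 ± 143 (Psmb4, a non-catalytic subunit). The 6 ATPases and 3 further genes of the base ranged from 836 ± 134 (Psmd4, a ubiquitin receptor) to 1946 ± 83.5 (Psmc1, an ATPase). The highest gene was thus 2.40 times the lowest in the alpha ring, 3.81 times in the beta ring and 2.33 times in the base. The lid genes ranged from 360 ± 12.4 (Psmd13) to 1844 ± 43 (Psmd8), a 5.12-fold range. Lowest were the 3 chaperones that assemble the base and are not part of the finished particle. Psmd5 had 251 ± 7.95, Psmd10 222 ± 27.1 and Psmd9 165 ± 10.3 in scaled value per kilobase in Het rods. The group means of these 3 lay below those of every other proteasome gene in all 4 groups, and their single values did so in 10 of the 12 libraries.

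Few steps in this order were larger than the spread between replicates. Of the 33 pairs of neighbours in the order, the ranges of 3 libraries were separate for 7 pairs in Het rods, 5 in KO rods, 3 in Het retina and 3 in KO retina. Across the 34 genes, the order of the Het rod levels had a Spearman correlation of 0.91 with that of KO rods, 0.96 with Het retina and 0.93 with KO retina, a description across genes that share their length and base composition in every library. Lengths matter for the order. By the merged length of all exons, the highest gene in Het rods was 4.20 times the lowest in the alpha ring, 3.30 times in the beta ring, 4.24 times in the base and 7.37 times in the lid. The lowest genes of these subcomplexes were then Psma7, Psmb3, Psmd1 and Psmd3, and the highest were as before. With this length in place of the longest protein-coding transcript, the number of chaperones below every other member was 2 in Het rods, 3 in KO rods, 1 in Het retina and 2 in KO retina. All 3 lay below the other members in 2 of the 12 libraries by that length, and in Het rods the orders by the 2 lengths had a Spearman correlation of 0.86.

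**Figure D2:**
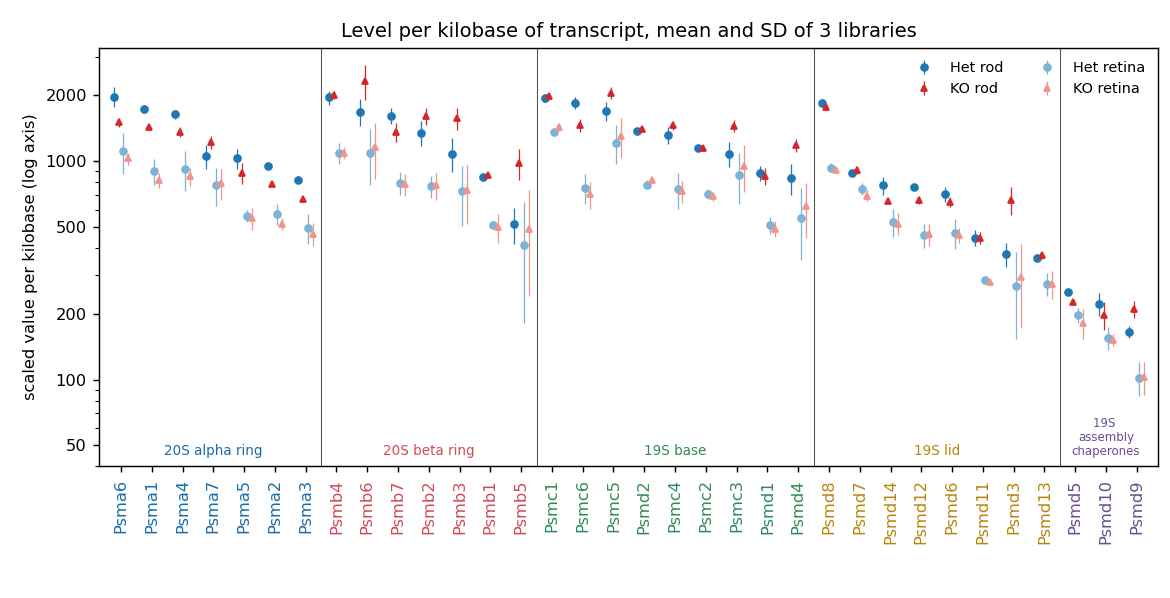
Level of each proteasome gene as scaled value per kilobase of the longest protein-coding transcript (log axis, points for the mean and bars for the SD of 3 libraries), ordered within each subcomplex by the Het rod level. In Het rods the 3 assembly chaperones lie between 165 and 251, below the 31 other genes, and the lid spans 360 to 1844.

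Comparing rod TRAP with whole retina asks how the proteasome message on rod ribosomes compares with that of the tissue around them. As a share of all deposited values, the 34 genes took 0.340, 0.338 and 0.352% of the Het rod libraries and 0.280, 0.286 and 0.282% of the Het retina libraries. In KO mice they took 0.313, 0.316 and 0.321% of the rod libraries and 0.285, 0.278 and 0.281% of the retina libraries. The shares of rod and retina libraries did not overlap in either genotype. The shares of KO rods lay below those of Het rods, but divided by the TMM factors all 3 KO values lay within the Het range of 0.382 to 0.401%. In bulk samples such as whole retina, fewer cells of a type and less RNA per cell cannot be told apart.

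Gene by gene, all 34 proteasome genes had a positive log2 fold change in Het rods against Het retina with TMM scaling, and 30 of the 34 with library totals only. Their median was 0.70, beside -0.08 for all 16110 genes tested, and their range ran from 0.25 (Psmd7) to 1.29 (Psmc6). At an adjusted p below 0.05 (limma, Benjamini-Hochberg over all genes tested) and a log2 fold change beyond 0.5, 26 of the 34 were higher in rods, where 22.7% of all genes were, and 0 were lower, where 36.4% of all genes were. In either direction, 31 of the 34 had an unadjusted p below 0.05, as did 66.6% of all genes. After scaling, the 3 rod values of 27 members lay above all 3 retina values, which held for 29.5% of all genes. In KO mice, 28 of 34 were higher, beside 26.9% of all genes, and 0 were lower, beside 36.1%, with an unadjusted p below 0.05 for 33 members and 71.2% of all genes. All 34 had rod values above every retina value there, beside 34.1% of the 16121 genes tested, with log2 fold changes from 0.33 (Psmd5) to 1.25 (Psmd3) and a median of 0.70.

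The number of calls depended on how the libraries were scaled. With RLE scaling, 27 members were higher in Het rods, with Psmc5 added, and 24 in KO rods, without Psma3, Psma6, Psmd6 and Psmd12. The share of all genes called with RLE scaling is not given here. With library totals only, 4 members were higher in Het rods (7.25% of all genes) and 2 in KO rods (7.10%), and 24 of 34 log2 fold changes were positive in KO mice. The median over all genes was then -0.51 in Het and -0.55 in KO mice. The members lay above it by a median of 0.77 in Het and 0.68 in KO mice. With each library's trend with transcript GC content removed, 23 members were higher in Het mice (22.7% of all genes) and 27 in KO mice (27.9%). In Het mice this correction added Psmb5 and Psmd3 and ended the calls of Psmc1 (0.41 after it), Psmd6 (0.43), Psmd11 (0.48), Psmd14 (0.30) and Psmd10 (0.24), and in KO mice it ended that of Psmc3 (0.48). With the replicate number as a block, 27 members were higher in Het mice (24.1% of all genes), the additional gene being Psmd3.

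Of the members called higher in rods, 23 were shared between genotypes, which is 88.5% of the Het calls and 82.1% of the KO calls. Of all genes tested, 22.7% were called higher in Het and 26.9% in KO mice. How many of those calls were shared is not given here, so these percentages are not shown to be particular to the members. Psmc1, Psmd10 and Psmd14 were called in Het mice alone and Psma7, Psmb5, Psmc3, Psmc5 and Psmd3 in KO mice alone, which is no test of a difference between genotypes. Psmd5, Psmd7 and Psmd13 were called in neither. The sizes of the 34 differences had a Spearman correlation of 0.39 between genotypes, and of 0.85 after the GC correction, across genes measured in separate libraries.

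**Figure D3:**
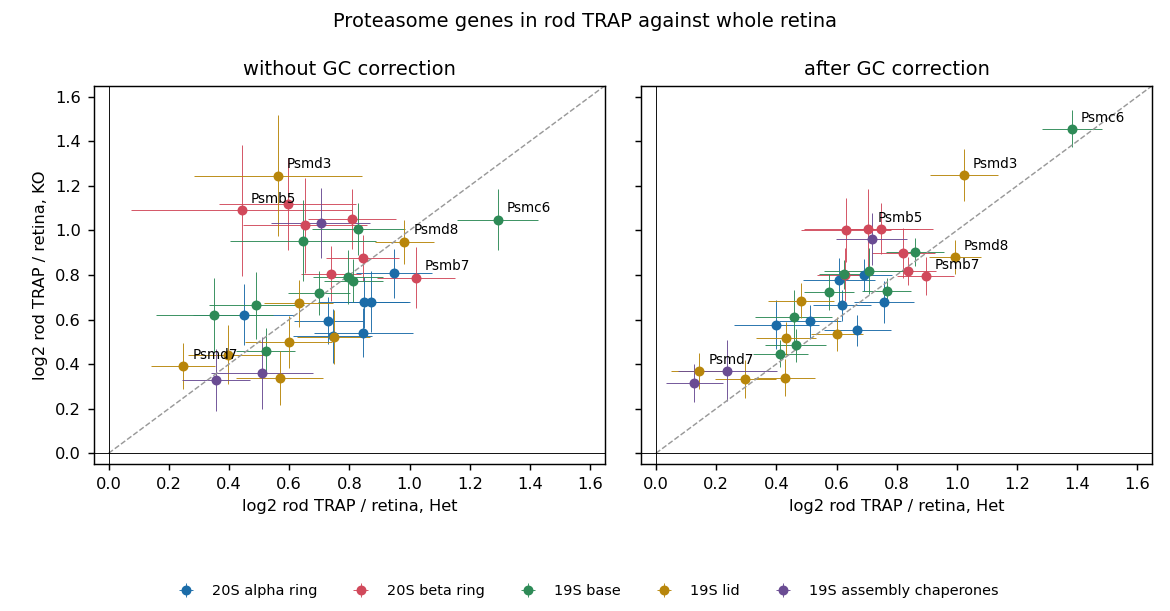
Log2 fold change of rod TRAP over whole retina for each proteasome gene in Het mice (horizontal) and KO mice (vertical), with standard errors as bars, before and after correction for GC content; the dashed line marks equal values. All points lie above 0 on both axes with the TMM scaling used here (with library totals only, 4 fall below 0 in Het and 10 in KO mice). The Spearman correlation between the axes is 0.39 before and 0.85 after the correction, although some points, such as Psmd1, lie further from the line after it. Psmc6 is then at 1.38 in Het and 1.46 in KO mice.

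The alpha ring forms the gate of the core and the surface on which the cap docks. Psma1 had deposited values of 2002, 1805 and 1972 in rods of Het mice, above the 1220, 1042 and 1394 of their retinas, and of 1458, 1398 and 1533 in rods of KO mice, against 1152, 1199 and 968. Its log2 fold change of rods over retina, with its standard error and the adjusted p from limma, was 0.95 ± 0.13 in Het mice (adjusted p = 0.000228) and 0.81 ± 0.11 in KO mice (adjusted p = 0.000229). This was the largest rise in the alpha ring in both genotypes without the GC correction, after which Psma5 was highest in Het mice. Psma5 rose by 0.87 ± 0.12 in Het mice (adjusted p = 0.000329) and 0.68 ± 0.14 in KO mice (adjusted p = 0.00201). Psma4 rose by 0.85 ± 0.15 in Het mice (adjusted p = 0.00134) and 0.68 ± 0.12 in KO mice (adjusted p = 0.000856), and Psma6 by 0.85 ± 0.16 in Het mice (adjusted p = 0.00197) and 0.54 ± 0.11 in KO mice (adjusted p = 0.00204). For each alpha gene but Psma7, every rod value lay above every retina value after scaling in both genotypes. Of all genes, this held for 29.5% in Het and 34.1% in KO mice. Psma3 rose by 0.74 ± 0.13 in Het mice (adjusted p = 0.0012) and 0.53 ± 0.12 in KO mice (adjusted p = 0.00467), and Psma2 by 0.73 ± 0.11 in Het mice (adjusted p = 0.000558) and 0.59 ± 0.11 in KO mice (adjusted p = 0.00102). Psma7, the alpha gene with the highest GC content, had the smallest value in Het mice, 0.45 ± 0.17 (adjusted p = 0.0448), under the fold threshold and with overlapping groups. In KO mice its value was 0.62 ± 0.14 (adjusted p = 0.00334). In all, 6 of the 7 alpha genes were called in Het and 7 of 7 in KO mice, beside 22.7% and 26.9% of all genes.

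In the beta ring, 6 of 7 genes were higher in Het rods and 7 of 7 in KO rods, beside 22.7% and 26.9% of all genes. Psmb7, which carries the trypsin-like site, had the largest rise in Het mice, with deposited values of 1741, 1571 and 1889 in rods, none of them below the 1095, 877 and 1148 of retina. Its log2 fold change was 1.02 ± 0.13 in Het mice (adjusted p = 0.000178) and 0.79 ± 0.14 in KO mice (adjusted p = 0.000883). Psmb6, with the caspase-like site, rose by 0.65 ± 0.21 in Het mice (adjusted p = 0.0223) and 1.02 ± 0.21 in KO mice (adjusted p = 0.00258), with overlapping groups in Het mice. The third catalytic gene differed from these in its spread rather than its direction. In Het rods Psmb5 (ENSMUSG00000022193) had deposited values of 347, 496 and 439, and in Het retina 373, 658 and 218, so that before scaling 1 retina library exceeded every rod library. Its log2 fold change was 0.44 ± 0.37 in Het mice (adjusted p = 0.321) and 1.09 ± 0.29 in KO mice (adjusted p = 0.00998). In Het mice it passed after the GC correction, at 0.71 ± 0.21 (adjusted p = 0.0147), or without Het retina replicate 2, at 0.90. Among the non-catalytic genes, Psmb4 rose by 0.84 ± 0.12 in Het mice (adjusted p = 0.000359) and 0.88 ± 0.10 in KO mice (adjusted p = 9.3e-05), and Psmb2 by 0.81 ± 0.15 in Het mice (adjusted p = 0.00133) and 1.05 ± 0.14 in KO mice (adjusted p = 0.000161). Psmb1 rose by 0.74 ± 0.10 in Het mice (adjusted p = 0.000243) and 0.81 ± 0.12 in KO mice (adjusted p = 0.000451). Psmb3 was at 0.59 ± 0.23 in Het mice (adjusted p = 0.0488) and 1.12 ± 0.21 in KO mice (adjusted p = 0.00128). This was the largest rise in KO mice within this ring without the GC correction, after which Psmb2 was highest.

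The base holds the ring of ATPases that unfolds substrates. Psmc6 (ENSMUSG00000021832), one of these ATPases, had the largest difference of all 34 genes in Het mice. In Het rods it had deposited values of 4135, 3678 and 3624, against 1957, 1557 and 2199 in Het retina. For KO mice they were 2864, 2499 and 2921 (rods) and 1957, 1958 and 1416 (retina), again with every rod value above every retina value. The log2 fold change was 1.29 ± 0.14 in Het mice (adjusted p = 5.65e-05) and 1.05 ± 0.14 in KO mice (adjusted p = 0.000179), and after the GC correction 1.38 ± 0.10 in Het and 1.46 ± 0.08 in KO mice. Psmc6 has the lowest GC content of the members, 36.97%. The ATPase Psmc4 rose by 0.83 ± 0.15 in Het mice (adjusted p = 0.00156) and 1.01 ± 0.12 in KO mice (adjusted p = 8.56e-05), and Psmc2 by 0.70 ± 0.10 in Het mice (adjusted p = 0.000403) and 0.72 ± 0.10 in KO mice (adjusted p = 0.000229). The remaining ATPases had the smallest values of the base. Psmc1 was at 0.52 ± 0.10 in Het mice (adjusted p = 0.00163) and 0.46 ± 0.10 in KO mice (adjusted p = 0.00341), just past the fold threshold in Het mice only. Psmc5 was at 0.49 ± 0.16 in Het mice (adjusted p = 0.0244) and 0.66 ± 0.15 in KO mice (adjusted p = 0.00413), and Psmc3 at 0.35 ± 0.19 in Het mice (adjusted p = 0.148) and 0.62 ± 0.16 in KO mice (adjusted p = 0.0091). The scaffold genes Psmd2 and Psmd1, which bind shuttle factors and hold the base together, moved by similar amounts. Psmd2 rose by 0.81 ± 0.10 in Het mice (adjusted p = 0.000126) and 0.77 ± 0.10 in KO mice (adjusted p = 0.000133), and Psmd1 by 0.80 ± 0.12 in Het mice (adjusted p = 0.00039) and 0.79 ± 0.12 in KO mice (adjusted p = 0.000462). The ubiquitin receptor Psmd4 rose by 0.65 ± 0.24 in Het mice (adjusted p = 0.0446) and 0.95 ± 0.18 in KO mice (adjusted p = 0.00151).

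The lid removes ubiquitin chains before degradation, and 5 of its 8 genes were called in each genotype, or 3 of 8 in Het mice after the GC correction. Of all genes, 22.7% were called higher in Het mice, before and after that correction, and 26.9% in KO mice before it. Psmd8, a structural gene of the lid, had deposited values of 3352, 3348 and 3465 in Het rods, all above the 2047, 2083 and 2111 of Het retina. It rose by 0.98 ± 0.10 in Het mice (adjusted p = 4.25e-05) and 0.95 ± 0.10 in KO mice (adjusted p = 4.67e-05). Psmd14, the deubiquitinase of the lid, was at 0.57 ± 0.14 in Het mice (adjusted p = 0.00814) and 0.34 ± 0.12 in KO mice (adjusted p = 0.0358). Its partner Psmd7, which lacks the active site, had the smallest value of the 34 in Het mice without the GC correction, after which Psmd5 was lowest. Psmd7 was at 0.25 ± 0.11 in Het mice (adjusted p = 0.0708) and 0.39 ± 0.10 in KO mice (adjusted p = 0.00905). Deposited values of Psmd7 were 1362, 1272 and 1261 in rods of Het mice against 1300, 1369 and 1310 in their retinas, which overlap before and not after scaling. Both members of this pair lay in the lower part of the range. Psmd12 rose by 0.75 ± 0.12 in Het mice (adjusted p = 0.000748) and 0.52 ± 0.12 in KO mice (adjusted p = 0.00486), and Psmd11, which clamps the lid to the core, by 0.63 ± 0.11 in Het mice (adjusted p = 0.00129) and 0.67 ± 0.11 in KO mice (adjusted p = 0.000504). Psmd6 rose by 0.60 ± 0.14 in Het mice (adjusted p = 0.00626) and 0.50 ± 0.12 in KO mice (adjusted p = 0.00465), and Psmd13 was at 0.40 ± 0.13 in Het mice (adjusted p = 0.0276) and 0.44 ± 0.13 in KO mice (adjusted p = 0.0155). Psmd3 (ENSMUSG00000017221), with the highest GC content of the members at 58.33%, had deposited values of 649, 802 and 789 in Het rods against 608, 922 and 405 in Het retina. In KO mice they were 1082, 1394 and 1159 against 690, 443 and 979. The Het groups overlapped, and the log2 fold change was 0.56 ± 0.28 in Het mice (adjusted p = 0.111) and 1.25 ± 0.27 in KO mice (adjusted p = 0.00316). After the GC correction Psmd3 passed in both genotypes, at 1.02 ± 0.11 in Het mice (adjusted p = 1.86e-05) and 1.25 ± 0.12 in KO mice (adjusted p = 1.11e-05).

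Among the assembly chaperones, Psmd9 rose by 0.70 ± 0.16 in Het mice (adjusted p = 0.00546) and 1.03 ± 0.16 in KO mice (adjusted p = 0.000442). Psmd10, also known as gankyrin, was at 0.51 ± 0.17 in Het mice (adjusted p = 0.0274) and 0.36 ± 0.16 in KO mice (adjusted p = 0.0746). Psmd5 was at 0.36 ± 0.11 in Het mice (adjusted p = 0.0235) and 0.33 ± 0.14 in KO mice (adjusted p = 0.0645), with deposited values of 875, 825 and 845 in KO rods that lie within the range of the 1021, 977 and 709 of KO retina before scaling and above them after it. Of the calls described for Het mice, those of Psmb3 and Psmd4 were lost without Het rod replicate 2, Het rod replicate 3 or Het retina replicate 1, that of Psmb6 without Het rod replicate 2 or 3, that of Psmd10 without any one of the Het rod replicates or Het retina replicate 1, and that of Psmd14 without Het retina replicate 2. Without Het retina replicate 2, Psma7, Psmb5, Psmc3, Psmc5, Psmd3 and Psmd13 were called in addition, and 31 members in all. How many of all genes were called without that library is not given here. In KO mice, Psmd6 and Psmd12 lost the call without KO rod replicate 3, KO retina replicate 1 or KO retina replicate 3, Psma6 without KO retina replicate 1 or 3, Psma3 without KO retina replicate 3, Psmb5 without KO retina replicate 1, and Psmc3 without KO retina replicate 1 or 2.

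Because most of these genes were higher in rods together, their promoters were searched for sequences that are known to bind factors shared by such genes. Windows of 250 bases upstream of the start site were taken from RefSeq (GRCm38.p6) and were found for 28 of the 34 members, not for Psmb1, Psmb2, Psmb7, Psmc3, Psmd3 and Psmd7. TGANNNNGC on either strand, the core of the antioxidant response element that NFE2L1 binds, was present in 11 of 28 members (39.3%) and in 35.2% of all 32851 windows of this length. CCAAT, on either strand, was present in 11 of 28 members (39.3%) and in 33.9% of all windows. GGGCGG, the core of the GC box, was present in 17 of 28 members (60.7%) and in 32.7% of all windows. A member was counted if any of its windows held the sequence, whereas the share of all windows is per window. Per window, TGANNNNGC was present in 12, CCAAT in 11 and GGGCGG in 17 of the 30 member windows. These matches describe letters in a window and not binding. The windows of 4 members with the antioxidant element, chosen because the comparisons turn on these genes, are shown 5′ to 3′ with the element in capitals. Their 3′ ends lie 27 to 50 bases from the start of the GENCODE transcript used for length.
Psmc6 promoter window, chr14:45329574-45329823, plus strand: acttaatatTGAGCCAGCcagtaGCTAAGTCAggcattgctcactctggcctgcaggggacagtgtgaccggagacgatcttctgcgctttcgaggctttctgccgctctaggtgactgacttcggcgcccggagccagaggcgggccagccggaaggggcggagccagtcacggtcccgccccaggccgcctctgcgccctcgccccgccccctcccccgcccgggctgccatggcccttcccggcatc
Psmb5 promoter window, chr14:54617996-54618245, minus strand: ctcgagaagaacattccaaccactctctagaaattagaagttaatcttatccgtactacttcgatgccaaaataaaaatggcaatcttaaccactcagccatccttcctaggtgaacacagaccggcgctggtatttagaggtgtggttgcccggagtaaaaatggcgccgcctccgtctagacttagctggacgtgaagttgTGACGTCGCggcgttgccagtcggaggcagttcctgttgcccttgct
Psmb3 promoter window, chr11:97703184-97703433, plus strand: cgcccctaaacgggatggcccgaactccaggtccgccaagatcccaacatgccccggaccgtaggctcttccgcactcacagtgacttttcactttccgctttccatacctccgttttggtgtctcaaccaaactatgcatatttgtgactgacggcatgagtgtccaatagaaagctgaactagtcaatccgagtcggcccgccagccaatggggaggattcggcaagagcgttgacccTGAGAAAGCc
Psma6 promoter window, chr12:55398575-55398824, plus strand: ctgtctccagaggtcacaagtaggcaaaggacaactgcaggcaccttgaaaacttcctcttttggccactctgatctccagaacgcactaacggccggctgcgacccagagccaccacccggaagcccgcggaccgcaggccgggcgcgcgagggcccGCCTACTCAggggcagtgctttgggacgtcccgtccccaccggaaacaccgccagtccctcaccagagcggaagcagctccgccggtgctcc
The Psmc6 window holds 2 copies of the element and each of the others holds 1, and the windows range in GC content from 49.6% (Psmb5) to 68.0% (Psmc6).

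Comparing KO with Het rods asks which of these genes change on rod ribosomes when both Shp2 alleles rather than 1 are deleted. Here the subcomplexes did not move as a block. The log2 fold change was positive for 17 of the 34 members and negative for 17 with TMM scaling, and positive for 11 with library totals only. The median was -0.00, beside 0.01 over the 13055 genes tested. At the threshold used, 3 members were higher in KO rods, where 12.1% of all genes were, and 0 were lower, where 1.55% of all genes were, and 19 had an unadjusted p below 0.05 in either direction, beside 37.7% of all genes. After scaling, 8 members had KO values all above the Het values (25.3% of all genes) and 10 had KO values all below (18.3%).

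The genes called were Psmb5, Psmd3 and Psmb3. Psmb5, with the chymotrypsin-like site, had deposited values of 705, 867 and 663 in KO rods, none of which overlap the 347, 496 and 439 of Het rods, and rose by 0.91 ± 0.15 on the log2 scale (SE, adjusted p = 0.00356 from limma, 3 against 3). Psmd3 of the lid, with 1082, 1394 and 1159 in KO rods above the 649, 802 and 789 of Het rods, rose by 0.80 ± 0.12 (adjusted p = 0.00266). Psmb3, a non-catalytic gene of the beta ring, with 1026, 1120 and 910 in KO rods above the 620, 856 and 816 of Het rods, rose by 0.53 ± 0.14 (adjusted p = 0.018). None of these 3 genes overlapped between the genotypes. The call of Psmb3 was lost with library totals only, with RLE scaling, and without KO rod replicate 1, KO rod replicate 2 or Het rod replicate 1. The calls of Psmd3 and Psmb3 were both lost with the GC correction described below. Psmd4 and Psmb6 lay just under the threshold, at 0.49 ± 0.11 (adjusted p = 0.0106) and 0.44 ± 0.15 (adjusted p = 0.054). Without KO rod replicate 3 both were called and 5 members in all were higher, and Psmd4 was also called without KO rod replicate 1, Het rod replicate 2 or Het rod replicate 3. In a single limma fit over all 12 libraries, which shares 1 estimate of the spread between rods and retina, 0 of the 13055 genes were called, with 2988 genes and 8 members at an unadjusted p below 0.05. There Psmb5 was at 0.93 (adjusted p = 0.196), Psmd3 at 0.82 (adjusted p = 0.193) and Psmb3 at 0.55 (adjusted p = 0.21).

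The alpha ring had the opposite sign for all but Psma7. Psma6 (ENSMUSG00000021024) had the lowest log2 fold change of the 34, -0.41 ± 0.09 (adjusted p = 0.00945), with KO values of 1333, 1246 and 1412 all below the Het values of 1904, 1698 and 2114. It passed the fold threshold only with library totals, at -0.51, or without Het rod replicate 2, at -0.51. Psma3 was at -0.32 ± 0.08 (adjusted p = 0.0113), Psma2 at -0.29 ± 0.07 (adjusted p = 0.015), Psma1 at -0.29 ± 0.08 (adjusted p = 0.0202) and Psma4 at -0.29 ± 0.08 (adjusted p = 0.0247). In sum, 6 of 7 alpha genes were negative, with a median of -0.29 (6 of 7 also with library totals only, with a median of -0.40), and 6 of 7 beta genes were positive with a median of 0.24, or 4 of 7 with library totals only. The exceptions were Psma7 at 0.20 ± 0.10 and Psmb7 at -0.27 ± 0.10. In the base, Psmc6 was lowest at -0.36 ± 0.08 (adjusted p = 0.0111, and 0.02 ± 0.06 after the GC correction described next) and Psmd4 highest, followed by Psmc3 at 0.41 ± 0.10 (adjusted p = 0.0137). The lowest gene of the lid was Psmd14 at -0.26 ± 0.09 (adjusted p = 0.0608). Among the chaperones Psmd9 was highest at 0.32 ± 0.11 (adjusted p = 0.052) and Psmd10 lowest at -0.19 ± 0.14 (adjusted p = 0.349).

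These signs moved with the base composition of the transcripts. Of the 15 members above 50% GC, 14 had a positive log2 fold change, and of the 19 at or below 50%, 16 had a negative one. Across the 34 members the log2 fold change had a Spearman correlation of 0.91 with GC content, and across all 12907 tested genes with a known GC content it was 0.70. The alpha ring has a median GC content of 44.98% and the beta ring 52.2%, so that GC content and ring cannot be told apart by sign alone. The trend of a library was the median deviation of genes in the top decile of GC content minus that in the bottom decile, on the log2 scale. Deviations were from each gene's mean over the Het and KO libraries of the same fraction, so the sign is relative to that mean. The trend was -0.81, -0.23 and -0.42 for Het rods, whereas KO rods had 0.42, 0.76 and 0.28. Lens markers summed to 4 to 4357 in Het rods and 1736 to 11630 in KO rods. The part of the GC trend or of lens RNA in the difference between genotypes was not tested. Stretches of 120 coding bases from the longest coding exon of 4 members show the contrast, with G and C in capitals and coordinates in GRCm38.
Psmd3 coding stretch, chr11:98682730-98682849, plus strand: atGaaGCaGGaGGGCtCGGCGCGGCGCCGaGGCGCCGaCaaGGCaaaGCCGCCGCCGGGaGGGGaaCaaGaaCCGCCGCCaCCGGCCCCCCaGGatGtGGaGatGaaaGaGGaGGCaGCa
Psmb5 coding stretch, chr14:54616702-54616821, minus strand: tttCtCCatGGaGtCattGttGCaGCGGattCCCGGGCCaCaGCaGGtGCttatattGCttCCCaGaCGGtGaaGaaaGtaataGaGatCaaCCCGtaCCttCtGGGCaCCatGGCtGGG
Psma6 coding stretch, chr12:55412187-55412306, plus strand: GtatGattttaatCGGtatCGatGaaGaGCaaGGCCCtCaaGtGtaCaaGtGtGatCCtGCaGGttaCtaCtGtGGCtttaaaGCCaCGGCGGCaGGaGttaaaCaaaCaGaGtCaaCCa
Psmc6 coding stretch, chr14:45340773-45340892, plus strand: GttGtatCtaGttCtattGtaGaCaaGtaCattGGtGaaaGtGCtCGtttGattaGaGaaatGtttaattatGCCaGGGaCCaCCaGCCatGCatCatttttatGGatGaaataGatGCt
The stretch of Psmd3 is 70.0% GC, that of Psmb5 52.5%, that of Psma6 45.8% and that of Psmc6 36.7%, for whole transcripts of 58.3%, 56.6%, 46.6% and 37.0%.

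**Figure D4:**
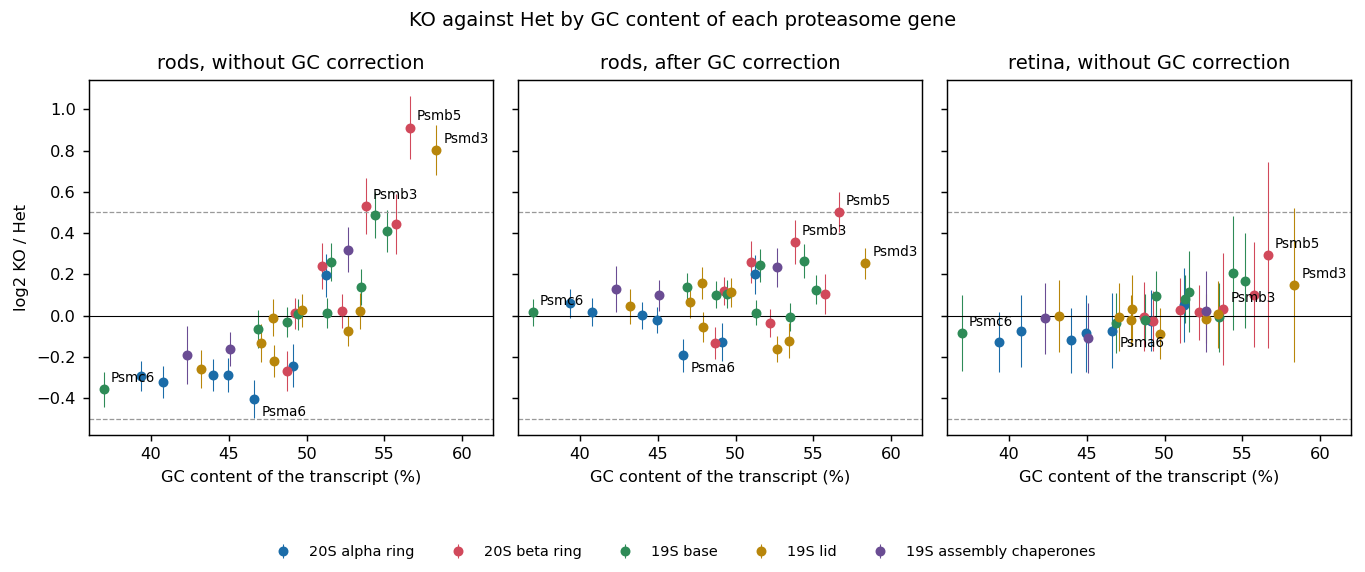
Log2 fold change of KO over Het for each proteasome gene (points, bars for the standard error) against the GC content of its longest protein-coding transcript, in rods, in rods after correction for GC content, and in whole retina. In rods Psmc6, with the lowest GC content, is at -0.36 and Psmd3, with the highest, at 0.80, and after the correction only Psmb5, at 0.50, is past the fold threshold marked by dashed lines.

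With the GC trend of each library removed, 1 member was higher in KO rods, where 2.73% of all genes were, and 0 were lower, where 0.781% were, and 9 had an unadjusted p below 0.05, beside 26.9% of all genes. This gene was Psmb5, at 0.50 ± 0.10 (adjusted p = 0.00806 from limma), 0.41 above the all-gene median of 0.10 in that fit. Psmb3 was at 0.36 ± 0.11 (adjusted p = 0.0512) and Psmd3 at 0.25 ± 0.08 (adjusted p = 0.0508). Psma6 was lowest at -0.19 ± 0.08 (adjusted p = 0.128). The values of the 34 members then ran from -0.19 to 0.50, with 25 positive, and their Spearman correlation with GC content was 0.38. Of the 34, 18 lay above the all-gene median of 0.10. The medians of the rings were 0.00 for alpha and 0.12 for beta, beside the same all-gene median of 0.10.

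The ratio of summed beta to summed alpha genes within a library does not depend on scaling between libraries. Het rods had 0.643, 0.757 and 0.722, all below the 0.941, 1.025 and 0.886 of KO rods. Het retinas had 0.709, 0.885 and 0.570, and KO retinas 0.753, 0.636 and 0.945, so that replicates of 1 genotype in the retina spanned most of the range seen in rods. The GC trend is relative to the mean of the rod or of the retina libraries, so its sign does not compare rod with retina libraries. The libraries with a negative GC trend, all 3 of Het rods, 2 of Het retina and 1 of KO retina, had ratios from 0.570 to 0.757. Those with a positive trend, all 3 of KO rods, 1 of Het retina and 2 of KO retina, had ratios from 0.753 to 1.025. Of these, KO retina replicate 1 had a trend of 0.01 and the ratio of 0.753, and the other 5 had ratios of 0.885 or more. The ratio of Psmb5 to Psma6, chosen because they had the highest and lowest log2 fold change in KO rods, was 0.182, 0.292 and 0.208 in Het rods, below the 0.529, 0.696 and 0.470 of KO rods. Corresponding values were 0.297, 0.630 and 0.136 (Het retina) and 0.312, 0.260 and 0.676 (KO retina). That this ratio separates the genotypes in rods follows from the choice of genes and is no test.

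**Figure D5:**
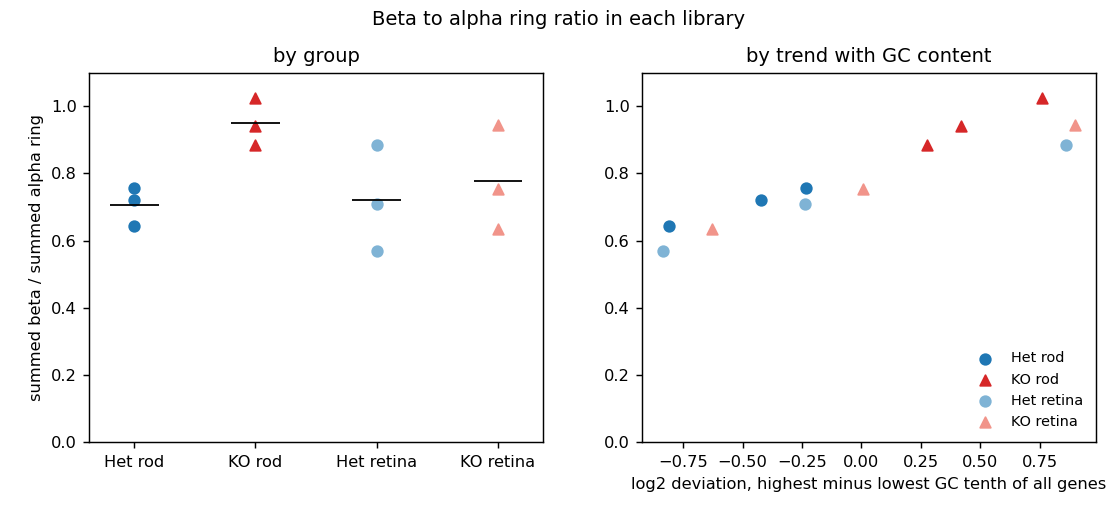
Summed deposited values of the 7 beta ring genes over those of the 7 alpha ring genes in each library (points), by group with a line at the mean, and against the library's trend with GC content, the log2 deviation of the top minus the bottom decile of genes. Deviations are from the mean of the libraries of the same fraction, so rod and retina trends have separate reference means. KO rods, at 0.886 to 1.025, lie above Het rods, and of the 6 libraries with a positive GC trend, KO retina replicate 1, with a trend of 0.01, has a ratio of 0.753 and the other 5 have 0.885 or more.

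In whole retina, where rods are a part of the RNA, 0 of the 34 members were called in KO against Het mice, as were 0% of the 16863 genes tested, higher or lower, by limma. Of all genes, 140 (0.830%) had an unadjusted p below 0.05, among them 0 members. Log2 fold changes of the members ran from -0.13 ± 0.14 (Psma2, SE) to 0.29 ± 0.45 (Psmb5). For Psmb5, KO retinas had 374, 342 and 749 against 373, 658 and 218 in Het retinas, with a spread within each genotype far larger than the difference. By subcomplex the values with the largest size were -0.13 for Psma2 in the alpha ring, 0.21 for Psmd4 in the base, 0.15 for Psmd3 in the lid and -0.11 for Psmd5 among the chaperones. Scaled among the 6 retina libraries, Psmc1 and Psmd2 had KO values all above the Het values, which held for 1.75% of all genes, at 0.10 ± 0.12 and 0.08 ± 0.12, and with the scaling over 12 libraries the values of both overlapped. The members' log2 fold changes in retina had a Spearman correlation with GC content of 0.77, and with those in rods, from separate libraries, of 0.76.

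An interaction term, fitted to the 12 libraries and 17192 genes, asks whether the KO effect is of another size in rods than in retina. Limma called 0 genes, while 517 genes (3.01%) and 0 members had an unadjusted p below 0.05. The difference of the KO effects, rods minus retina, ran from -0.30 ± 0.20 for Psma6 to 0.69 ± 0.44 for Psmd3, both with an adjusted p = 0.888. For Psmb5 it was 0.65 ± 0.54 (adjusted p = 0.888) and for Psmb3 0.53 ± 0.34 (adjusted p = 0.888). The rise of these genes in KO rods is therefore not shown to differ from the values in retina.

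A list of 39 further genes of the pathway was read beside the members. In Het mice 35 of them were tested, of which 15 were higher in rods and 2 lower, beside 22.7% and 36.4% of all genes. With library totals only, 5 were higher and 6 lower, beside 7.25% and 45.9% of all genes. In KO mice 36 were tested, of which 18 were higher and 3 lower, beside 26.9% and 36.1% of all genes, and with library totals only 3 and 9 were, beside 7.10% and 48.7%. Higher in rods were Vcp, the unfoldase that hands ubiquitinated proteins to the proteasome, at 1.12 ± 0.10 in Het mice (adjusted p = 2.23e-05) and 1.09 ± 0.12 in KO mice (adjusted p = 5.74e-05), and Uba1, the ubiquitin-activating enzyme, at 0.96 ± 0.13 in Het mice (adjusted p = 0.000218) and 1.15 ± 0.10 in KO mice (adjusted p = 1.75e-05). These 2 genes were called under both scalings in both genotypes. Psmg1 and Psmg2, a pair that starts assembly of the alpha ring, were called in KO mice with TMM scaling only. Psmg1 rose by 0.97 ± 0.16 in Het mice (adjusted p = 0.000691) and 0.81 ± 0.14 in KO mice (adjusted p = 0.000997). Psmg2 rose by 0.97 ± 0.14 in Het mice (adjusted p = 0.000356) and 0.92 ± 0.14 in KO mice (adjusted p = 0.000462). Ngly1, which processes NFE2L1, rose by 0.997 ± 0.19 in Het mice (adjusted p = 0.00165) and 0.76 ± 0.15 in KO mice (adjusted p = 0.00186), with its KO call lost with library totals only. Nfe2l1 itself was at -0.48 ± 0.19 in Het mice (adjusted p = 0.0561) and -0.13 ± 0.14 in KO mice (adjusted p = 0.439) with TMM scaling, and was called lower in both with library totals only.

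Of the genes of the interferon-inducible forms of the proteasome, Psmb10 was called lower in rods in Het mice and Psme2 in KO mice with TMM scaling. This is no test of a difference between genotypes. Of the 5 activator and inhibitor genes listed, 1 was called lower in Het mice (36.4% of all genes) and 2 in KO mice (36.1%) with TMM scaling. With library totals only, 3 were in Het (45.9% of all genes) and 4 in KO mice (48.7%). These counts include Psme1, whose direction was fixed by the filter, and are not read as a result. The other lower genes counted above with TMM scaling, Psme1 in both genotypes and Psmb8 in KO mice, passed the filter on low values through the retina libraries, which fixed their direction, so their values are given without a test. Psme1, an activator cap subunit, had deposited values of 7, 10 and 19 in Het rods, below the 356, 384 and 451 of Het retina. In KO mice they were 18, 8 and 14 in rods and 360, 451 and 446 in retina. Psmb10, an immunoproteasome subunit, had 11, 14 and 14 in Het rods against 40, 97 and 37 in Het retina and was at -1.61 ± 0.41 in Het mice (adjusted p = 0.00785) and -0.33 ± 0.41 in KO mice (adjusted p = 0.491). Its relatives Psmb8 and Psmb9 had values of at most 2 in each rod library. In retina Psmb8 had 9, 39 and 10 in Het mice and 16, 13 and 24 in KO mice. Psme2, the partner of Psme1, was at -0.33 ± 0.18 in Het mice (adjusted p = 0.131) and -0.59 ± 0.17 in KO mice (adjusted p = 0.0132). The thymus subunit Psmb11 was listed at 0 in all 12 libraries and the testis subunit Psma8 at 3 or less. The 6 microglia markers, which belong to cells that use the interferon-inducible subunits, summed to 1 to 13 in rods against 242 to 511 in retina, and their part in these values was not tested.

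In KO against Het rods, 35 genes of this list were tested, of which 4 were higher and 0 lower, beside 12.1% and 1.55% of all genes. With library totals only, 4 were higher and 2 lower, beside 9.21% and 4.47%. An unadjusted p below 0.05 was found for 18 of the 35, beside 37.7% of all genes. The 4 higher genes were Psmb10 at 1.24 ± 0.30 (adjusted p = 0.0122), the assembly factor Psmg3 at 1.02 ± 0.26 (adjusted p = 0.0151), the ubiquitin receptor Adrm1 at 0.70 ± 0.15 (adjusted p = 0.00899) and the polyubiquitin gene Ubb at 0.74 ± 0.18 (adjusted p = 0.0261). After the GC correction 0 of the 35 were called by limma, beside 2.73% of all genes higher and 0.781% lower, with 14 at an unadjusted p below 0.05, beside 26.9%.

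Some members share sequence with other genes, so that reads may have been split between them. Over at least 200 bases at 95% identity or more, Psma3 shares 665 bases at 100% with Gm13835, which had deposited values of 360 to 703. Psmb5 shares 796 bases at 98.9% with Gm3375, at 35 to 77, where Psmb5 itself had at least 218. Other such copies were Gm6542 for Psma4 (46 to 110), Psma5-ps and Gm12989 for Psma5 (46 to 118 and 47 to 107), Gm6467 for Psmb3 (26 to 66), A730017L22Rik for Psmd11 (107 to 152) and Gm5422 for Psmd2 (40 to 103). Library preparation did not mark the strand, and Psmb7, Psmc3, Psmd13 and Psmd1 overlap Nek6, Slc39a13, Sirt3 and Htr2b on the opposite strand, as Psmd9 does Gm26745 over 1849 bases, so reads in the overlaps cannot be assigned to either gene.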

How the data were processed

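Poly(A) RNA of rod TRAP and whole retina was sequenced from a full-length cDNA preparation (SMART-Seq V4) that does not mark the strand. Per the labels, reads were processed with CASAVA 1.8.2, HISAT2, DESeq2 and edgeR on GRCm39; the counting tool and its strand setting are not given in the sources used here. The deposited values are a signal per gene, whole numbers with nearly equal totals within each fraction. In 6 of the 12 libraries they look like reads times 1 factor, and in the others no factor was found, so they were not treated as counts. Values were scaled by TMM (trims of 0.3 and 0.05, written in R 4.3.3) and tested as log2(value + 2) with limma 3.58.1 (trended, robust) between the 2 groups compared. Fold changes on this scale understate changes of low genes. Genes needed about 10 in 3 libraries and a sum of 15. P-values were Benjamini-Hochberg adjusted over all genes tested, two-sided, and a call required a log2 fold change beyond 0.5 at an adjusted p below 0.05. The GC correction removed each library's loess trend (span 0.3) with transcript GC content (GENCODE, GRCm38, known for 91.8% of genes and all 34 members). Transcript similarity used BLAST 2.17.0. Tables and plots were made with Python 3.11.15, NumPy 2.4.6, pandas 2.3.3 and matplotlib 3.10.9. The scripts were tested on simulated data. Replicate numbers paired the Het libraries (correlations of the deviations of same-numbered libraries of 0.47, 0.41 and 0.25) and no other comparison. Alternatives were other scalings, pseudocounts of 0.5 and 8, other filters, the replicate block, the GC correction, 1 fit over 12 libraries, removal of genes lower in rods, merged exon length, and leaving out each library. Members passing the threshold were given full statistics, with the largest rise and fall of each subcomplex. The members and lists were chosen with earlier results of these data known. Of the rod markers, 1 gene is not reported here.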

Additional observations from a re-analysis of the deposited data

How the results depend on the processing

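Over all members, comparisons and alternatives, 2791 of 2924 values had no change of call, 103 lost a call, 26 gained one and 4 called values turned sign. In all, 228 values had another sign than the one reported, 224 of them called under neither setting. With library totals only, 4 members were called higher in Het rods than in Het retina and 2 in KO rods than in KO retina. The log2 fold change was then negative for 4 members in Het and 10 in KO mice. The 4 called values that turned sign were those of KO rods against KO retina with library totals only: Psma3 at -0.0374, Psma6 at -0.0209, Psmd6 at -0.0606 and Psmd12 at -0.0413 on the log2 scale. The cause was not tested.

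For KO against Het rods, where 3 members were higher and 0 lower, 1 member was lower with library totals only, 1 was higher with the GC correction, 1 with the GC correction and the replicate block together, and 0 in 1 fit over the 12 libraries (limma, 8 members at an unadjusted p below 0.05). Leaving out 1 library at a time gave 2 to 5 members higher and 0 to 1 lower; the 5 came without KO rod replicate 3 and the 1 without Het rod replicate 2. For rods against retina the same step gave 22 to 31 members higher in Het and 23 to 28 in KO mice, and 0 lower, and for KO against Het retina and the interaction 0. The share of all genes called with a library left out is not given, here or above. Removing the genes depleted from Het rods before the fit changed no member's call. With the replicate number as a block, 27 members were higher in Het rods than in Het retina, with Psmd3 added (adjusted p = 0.046 in limma); the block changed no other call of a member. Per merged exon length, 1 assembly chaperone lay below every other member in Het retina.

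Depth limits little here, since the lowest member value was 217, but scaling, GC trends that differ between libraries, and 3 libraries per group do. Library totals assume that rod and retina libraries hold equal RNA in sum, and TMM that most genes do not differ. Between rods and retina, 66.6% of all genes in Het and 71.2% in KO mice had an unadjusted p below 0.05 in limma under TMM. The assumption of TMM was thus not met there by that measure. Nothing in the labels separates genotype from the GC trend in rods, so these cannot be told apart there.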
